A study of Mus musculus with 8 samples.

Results

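Interferon-stimulated genes are described here in hearts of HDAC3-deficient mice. HDAC3 is an enzyme that removes acetyl groups from histones as part of the NCoR and SMRT repressor complexes. The genes were chosen by name, with earlier results of these data known. The arrays were Affymetrix Mouse Gene 1.0 ST arrays, which read a gene through probes along its transcript. In their annotation, 43 symbols of well-known interferon-stimulated genes were looked up. Of these, 39 had a transcript cluster (a gene-level probe set) of their own, among 19933 genes with one, and 37 passed a filter on dim genes that left 14950 genes to test. Isg15, Gbp2 and Igtp were annotated only on clusters shared with another symbol, and Ifi44 was not analysed here.

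The tested hearts came from 4 HDAC3-deficient mice (KO), called MCH3-KO in the design text, and the controls from 4 wild type mice (WT). All 8 mice were male C57BL/6 animals aged 6 weeks that ate normal chow, with 1 array per whole heart. The sources used here do not give the promoter or cell type behind the deletion. Values are log2 intensities, differences are KO minus WT on that scale, and a gene is said to have risen or fallen where the Benjamini-Hochberg adjusted p of limma's two-sided test over all genes tested was under 0.05.

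Interferons are secreted proteins that warn cells of infection. Type I interferons bind the receptor IFNAR and, through the kinases JAK1 and TYK2, activate a complex holding STAT2 and IRF9 that binds DNA elements called ISREs. Interferon gamma binds IFNGR and acts mainly at DNA elements called GAS. The genes switched on encode antiviral proteins, RNA sensors, further transcription factors and brakes such as USP18. Macrophages, endothelial cells and fibroblasts of the heart can all express them.

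The array medians lay between 54.1 and 56.5 intensity units, and pairs of arrays correlated across clusters at a Pearson r of 0.9885 to 0.992 where they crossed genotypes. Hdac3 was at 8.50 to 8.59 in KO hearts and at 10.04 to 10.20 in WT hearts, which fits the labels; whether its probes lie in the deleted part was not checked. Heart tissue was as labelled: the cardiac actin gene Actc1 was at 13.43 to 13.49 in KO and 13.48 to 13.53 in WT hearts. The number of arrays limits the precision of every difference.

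Interferon-stimulated genes were more often higher than lower in KO hearts, by modest amounts. The members were chosen with earlier results of these data known, so their counts are not an independent result. Of the 37 members tested 14 rose (37.8%), where 10.8% of all genes tested were called higher, and 0 fell, where 13.9% were called lower. At an unadjusted p under 0.05 the counts were 29 higher, where 15.8% of all genes were, and 0 lower, where 20.1% were. Likewise, limma with trended, robust variances called 17 higher, where 11.4% of all genes were called, and 0 lower, where 2276 of 14950 were. The median difference over the members was 0.30, beside -0.01 over all genes tested. The differences of all 37 tested members were positive, as were those of 7206 of 14950 genes, but Adar, Isg20, Ifi35 and Eif2ak2 lay near 0 and took a negative sign when single arrays were left out.

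The 14 genes that rose were Irf5, Oas2, Ifit3, Usp18, Irf7, Ifit1, Ifit2, Irf8, Samhd1, Rsad2, Ifitm2, Ifitm3, Trim25 and Bst2. Their differences ran from 0.28 (Bst2) to 0.80 (Irf5), or 1.22 to 1.75 times the WT level. The plot of differences shows that the members that did not pass also had estimates above 0, with Adar closest to it. In 13 of the 23 that did not pass the difference was at least 0.25.

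**Figure D1:**
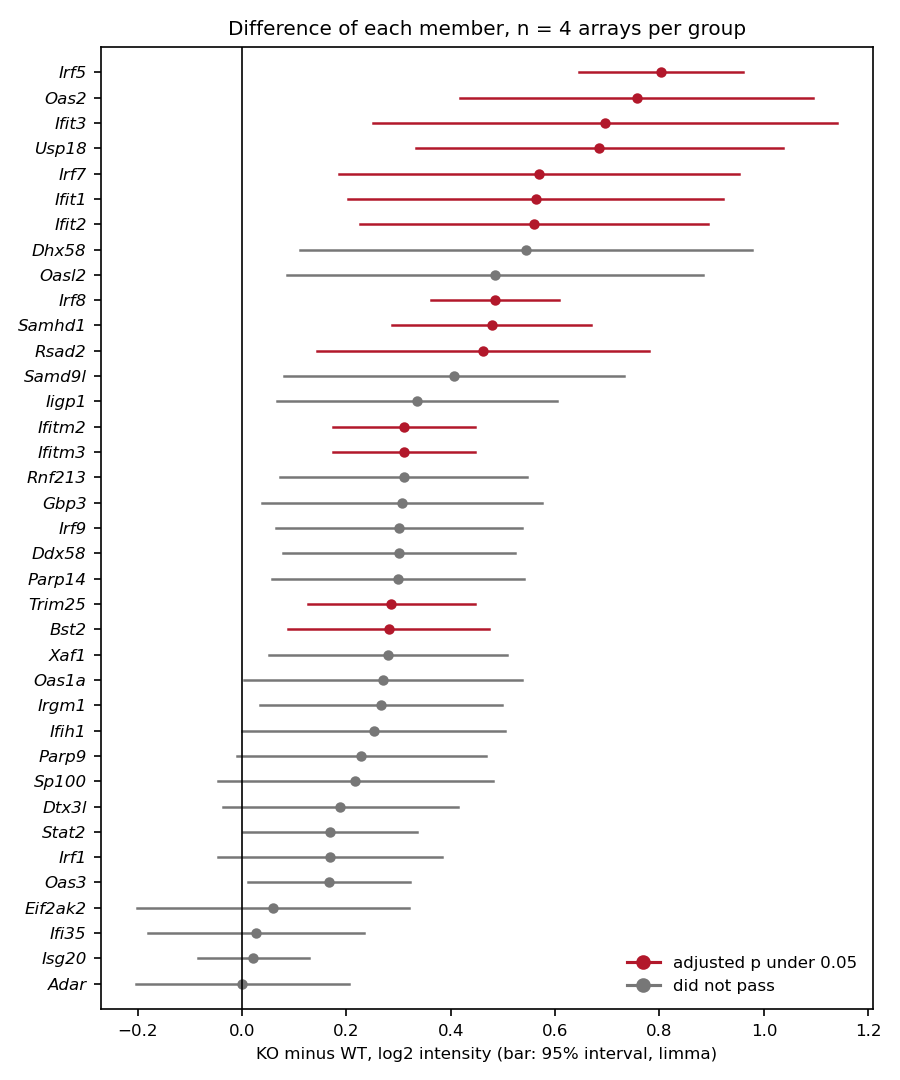
Difference of each of the 37 tested members, KO minus WT in log2 intensity, with limma's 95% interval (n = 4 arrays per group). Red marks the 14 with an adjusted p under 0.05. Irf5 lies at the top with 0.80 and Adar at the bottom near 0.

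The count of risen members depended on single hearts. It was 8 without KO replicate 1, 8 without KO replicate 2, 9 without KO replicate 3 and 8 without WT replicate 1, where 8.11%, 8.39%, 9.17% and 8.76% of all genes were called higher. It was 24 without KO replicate 4 (11.4% of all genes) and 26 without WT replicate 2 (11.2%). With all hearts it was 23 under quantile normalisation (12.0% of all genes) and 30 with array weights (14.6%). The 8 members that passed under every alternative in which they were tested were Ifitm2, Ifitm3, Irf5, Irf8, Oas2, Samhd1, Trim25 and Usp18. The other 6 (Ifit1, Ifit2, Ifit3, Irf7, Rsad2 and Bst2) each lost the call when 1 of several arrays was left out.

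The hearts within each group differed in the same direction for most members. Averaged over the 37 members and set against the WT mean, KO replicates 1 to 4 stood at 0.42, 0.47, 0.38 and 0.12, and WT replicates 1 to 4 at -0.19, 0.18, -0.03 and 0.04. KO replicate 4 was therefore below WT replicate 2. It was the lowest of the KO hearts for 31 of 37 members (83.8%), beside 37.2% of all genes tested. WT replicate 1 was the lowest WT heart for 29 members (78.4%, beside 26.1%) and WT replicate 2 the highest for 27 (73.0%, beside 37.2%).

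Because of that spread, the groups were fully separate for few members. Every KO heart was above every WT heart for 8 of 37 members (21.6%), where 11.7% of all genes were separate in that direction. For 18 further members (48.6%, beside 4.29% of all genes), KO replicates 1 to 3 were above all WT hearts and KO replicate 4 was not. The median SD over members was 0.17 in KO and 0.20 in WT hearts, while over all genes tested it was 0.09 in both groups.

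**Figure D2:**
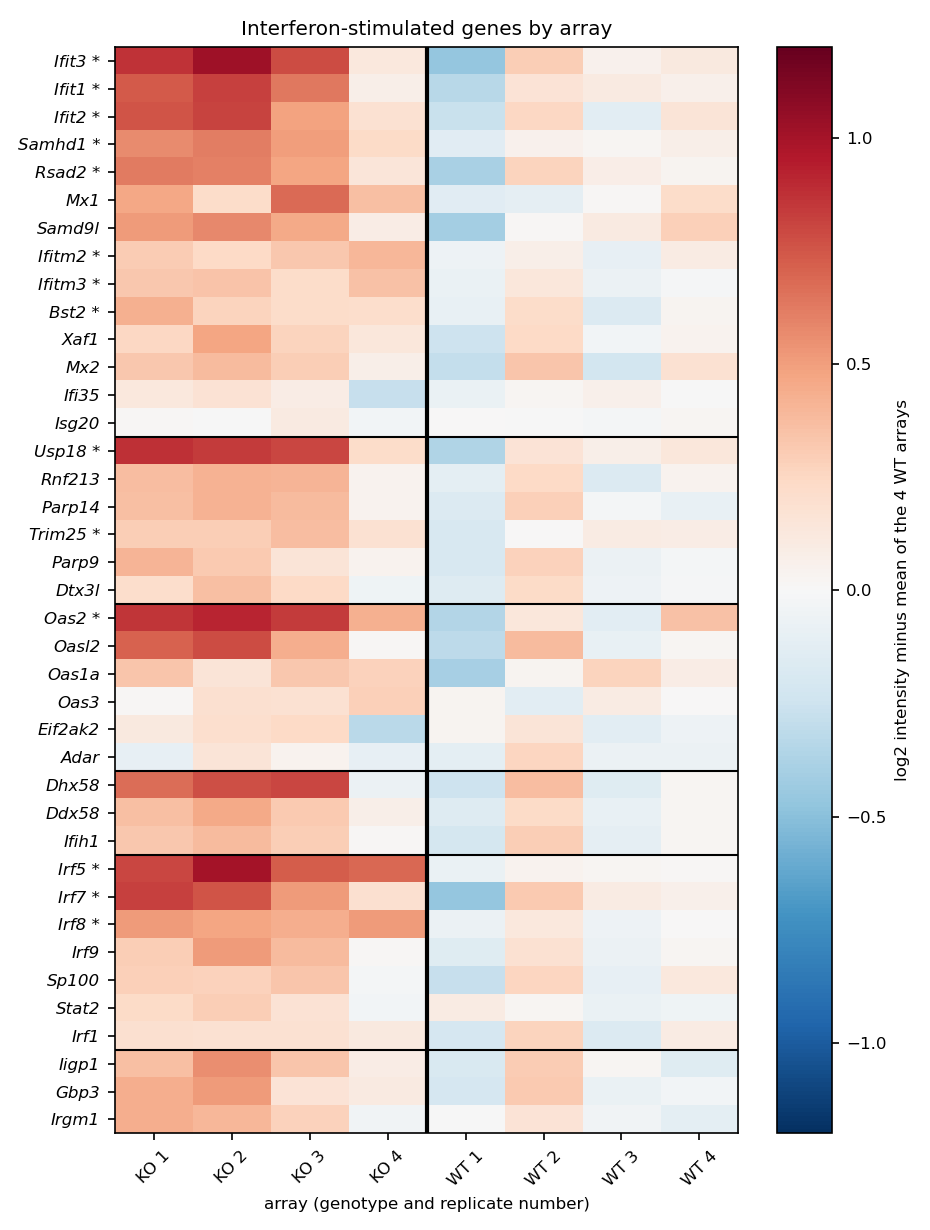
Log2 intensity of the 39 measured members in each of the 8 arrays, minus the mean of the 4 WT arrays, with KO arrays on the left and WT arrays on the right. Black lines separate the roles in the order used in the text (antiviral effectors, ISG15 and ubiquitin ligases, 2-5A synthetases and RNA enzymes, RNA sensors, transcription factors, GTPases), and stars mark genes with an adjusted p under 0.05. KO replicates 1 to 3 are red for most genes, while KO replicate 4 is pale except for Irf5, Irf8, Ifitm2, Ifitm3 and a few others.

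Promoter sequences show which members carry the letters of the 2 elements named above. RefSeq windows of assembly GRCm38.p6 (250 bases before to 50 after each annotated start) were found for 35 of the 43 listed genes. The ISRE core was searched as GAAA, any 2 bases and GAAA again, and the GAS element as TTCNNNGAA, each on both strands, with overlapping matches counted and marked together. The ISRE letters were in a window of 17 of the 35 members (48.6%) and of 3.99% of all 27025 genes with a window, and the GAS letters were in 12 (34.3%) and 9.55%. Among members that rose, 6 of the 12 with a window held the ISRE letters, and among tested members that did not pass, 8 of 19. A match is a description of letters and not a measured binding site.

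The following 50-base stretches, each read on the gene's strand, show the ISRE letters nearest the start in 5 members that rose (Ifit1, Ifit3, Rsad2, Bst2, Ifitm2) and 4 that did not pass (Gbp3, Irgm1, Oas1a, Oas3), so that both kinds can be compared. Capitals mark the matches, which are pairs of GAAA with 2 bases between them or, where the motif lies on the other strand, pairs of TTTC.
Ifit1 (chr19:34640784-34640833, plus strand): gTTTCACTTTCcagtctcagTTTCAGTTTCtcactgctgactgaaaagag
Ifit3 (chr19:34583387-34583436, plus strand): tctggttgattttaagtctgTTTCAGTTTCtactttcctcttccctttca
Rsad2 (chr12:26456543-26456592, minus strand): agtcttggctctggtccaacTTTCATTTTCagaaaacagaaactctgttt
Bst2 (chr8:71537567-71537616, minus strand): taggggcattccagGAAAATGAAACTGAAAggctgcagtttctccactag
Ifitm2 (chr7:140955978-140956027, minus strand): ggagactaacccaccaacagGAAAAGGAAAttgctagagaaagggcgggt
Gbp3 (chr3:142559985-142560034, plus strand): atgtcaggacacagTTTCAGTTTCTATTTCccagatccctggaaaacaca
Irgm1 (chr11:48871415-48871464, minus strand): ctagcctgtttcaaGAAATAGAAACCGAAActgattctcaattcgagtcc
Oas1a (chr5:120907510-120907559, minus strand): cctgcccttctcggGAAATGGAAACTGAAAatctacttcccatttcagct
Oas3 (chr5:120777705-120777754, minus strand): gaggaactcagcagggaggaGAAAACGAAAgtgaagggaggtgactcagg
In Bst2, Gbp3, Irgm1 and Oas1a 2 matches overlap into one run of 3 repeats. The first match began 104 bases before the annotated start in Ifit1, 130 in Bst2, 45 in Gbp3, 30 in Irgm1 and 20 in Oas1a.

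Irf8, which rose, is shown as a contrast because a window of Irf8 held the GAS letters and none held an ISRE match. The capitals mark TTCNNNGAA, whose 2 matches began 171 and 153 bases before the start.
Irf8 (chr8:120736167-120736233, plus strand): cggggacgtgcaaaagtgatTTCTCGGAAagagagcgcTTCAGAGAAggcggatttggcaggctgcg
The windows of Irf5, Irf7, Trim25, Irf9 and Oasl2 held neither set of letters.

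Antiviral effectors made up the largest group of members, and 8 of the 12 tested rose, where 10.8% of all genes were called higher. The IFIT proteins bind viral RNA and translation factors. Ifit3 was at 7.96, 8.11, 7.88 and 7.22 in KO replicates 1 to 4, against 6.63, 7.39, 7.15 and 7.21 in WT replicates 1 to 4. Its first 3 KO hearts stood above every WT heart and the fourth fell within the WT range. The difference was 0.70 (SE 0.20, 95% interval 0.25 to 1.14, limma adjusted p = 0.0282, range 0.00205 to 0.0797 over the alternatives).

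Ifit1 and Ifit2 had the same arrangement of hearts. Ifit1 was at 7.99, 8.08, 7.89 and 7.33 in KO hearts and at 6.93, 7.42, 7.37 and 7.33 in WT hearts, a difference of 0.56 (SE 0.16, limma adjusted p = 0.028, range 0.00204 to 0.08 over the alternatives). Ifit2 was at 7.56, 7.61, 7.29 and 6.99 in KO hearts and at 6.53, 7.05, 6.67 and 6.95 in WT hearts, also a difference of 0.56 (SE 0.15). Rsad2, which encodes viperin, an enzyme that makes a chain-terminating nucleotide, was at 8.17, 8.14, 8.01 and 7.69 in KO hearts and at 7.15, 7.81, 7.62 and 7.58 in WT hearts. In each of these genes KO replicate 4 overlapped the WT hearts. Rsad2 differed by 0.46 (SE 0.14, limma adjusted p = 0.0386, range 0.00338 to 0.106 over the alternatives).

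The IFITM proteins, which block fusion of viruses with cell membranes, behaved differently across hearts. Ifitm3 was at 11.43, 11.45, 11.33 and 11.46 in KO hearts and at 11.03, 11.25, 11.04 and 11.10 in WT hearts. All KO hearts were above all WT hearts, with KO replicate 4 the highest, and the difference was 0.31 (SE 0.06, limma adjusted p = 0.00426). Ifitm2 was at 10.57, 10.51, 10.59 and 10.67 in KO hearts and at 10.21, 10.34, 10.17 and 10.37 in WT hearts, likewise a difference of 0.31 (SE 0.06). Ifitm2 had 2 other clusters, with differences of 0.35 and 0.27. The sequences of Ifitm2 and Ifitm3 are alike, and whether probes of one also bind the other was not tested.

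Samhd1, which hydrolyses deoxynucleotides and so restricts retroviruses, was at 9.03, 9.08, 8.96 and 8.70 in KO hearts, against 8.32, 8.51, 8.49 and 8.53 in WT hearts. The groups did not overlap, although KO replicate 4 was again the lowest KO heart, and Samhd1 rose by 0.48 (SE 0.09, limma adjusted p = 0.00237). Bst2, or tetherin, which holds budding virions on the cell surface, was at 7.56, 7.40, 7.35 and 7.34 in KO hearts and at 7.05, 7.35, 6.96 and 7.16 in WT hearts. WT replicate 2 lay within the KO range, and Bst2 differed by 0.28 (SE 0.09, limma adjusted p = 0.0378, range 0.00468 to 0.11 over the alternatives).

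The tested effectors that did not pass were Samd9l (0.41, SE 0.15), a restriction factor of poxviruses, Xaf1 (0.28, SE 0.10), a binding partner of the apoptosis inhibitor XIAP, Ifi35 (0.03, SE 0.09) and the exonuclease gene Isg20 (0.02, SE 0.05). Samd9l passed without KO replicate 4 (0.51, limma adjusted p = 0.0291, range 0.0225 to 0.167 over the alternatives). Ifi35 had its lowest value in KO replicate 4 (6.81) and stood at 7.18 to 7.26 in the other KO hearts, against 7.01 to 7.16 in WT hearts. Mx1 and Mx2, dynamin-like GTPases that trap viral particles, were under the dim filter. Mx1 was at 4.22, 3.97, 4.43 and 4.12 in KO hearts and at 3.62, 3.65, 3.77 and 3.98 in WT hearts, and with no filter it passed (0.43, limma adjusted p = 0.0162). Inbred C57BL/6 mice carry a defective Mx1 allele. Mx2 did not pass with no filter (0.27, limma adjusted p = 0.225).

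Among 6 tested genes of ISG15 conjugation and interferon-induced ubiquitin ligases, 2 rose, where 10.8% of all genes were called higher. Usp18 removes ISG15 from proteins and also binds IFNAR2, where it dampens type I signalling. It was at 7.99, 7.96, 7.92 and 7.33 in KO hearts, against 6.76, 7.28, 7.18 and 7.25 in WT hearts. The first 3 KO hearts were far above WT and the fourth was just above the highest WT heart. Usp18 rose by 0.68 (SE 0.16, 95% interval 0.33 to 1.04, limma adjusted p = 0.0098), or 1.61 times the WT level.

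Trim25, the ubiquitin ligase that helps activate RIG-I, was at 7.87, 7.87, 7.95 and 7.77 in KO hearts and at 7.39, 7.59, 7.68 and 7.66 in WT hearts. It rose by 0.29 (SE 0.07, limma adjusted p = 0.0153), with no overlap of the groups. Parp14 (0.30, SE 0.11), an ADP-ribosyltransferase, Parp9 (0.23, SE 0.11), its partner Dtx3l (0.19, SE 0.10), a ubiquitin ligase, and Rnf213 (0.31, SE 0.11), a very large ubiquitin ligase, did not pass. Rnf213 had an adjusted p of 0.0581 in limma (range 0.00374 to 0.141 over the alternatives), and its other cluster differed by 0.25. Rnf213 stood at 9.05 to 9.10 in KO replicates 1 to 3 and at 8.73 in KO replicate 4, against 8.52 to 8.92 in WT hearts.

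The 2-5A synthetases make a short oligoadenylate that activates RNase L. Oas2 was at 8.39, 8.44, 8.37 and 7.95 in KO hearts, against 7.18, 7.66, 7.40 and 7.88 in WT hearts. It rose by 0.76 (SE 0.15, 95% interval 0.42 to 1.10, limma adjusted p = 0.00461), with KO replicate 4 only just above WT replicate 4. Oasl2, a relative with ubiquitin-like domains, was at 8.69, 8.77, 8.43 and 8.0 in KO hearts and at 7.67, 8.37, 7.90 and 8.01 in WT hearts. Its difference of 0.48 (SE 0.18) did not pass (limma adjusted p = 0.0755, range 0.00399 to 0.187 over the alternatives), and KO replicate 4 was below 2 WT hearts.

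Oas1a differed by 0.27 (SE 0.12) and Oas3 by 0.17 (SE 0.07), and neither passed. Their hearts were arranged in another way: Oas3 was highest in KO replicate 4 (5.04) and lowest among KO hearts in KO replicate 1 (4.77), against 4.63 to 4.85 in WT hearts. Oas1a belongs to a family of near-identical copies, and shared hybridisation was not tested. The double-stranded RNA kinase gene Eif2ak2 (0.06, SE 0.12) and the RNA-editing enzyme gene Adar (0.00, SE 0.09) did not pass. Adar was at 7.03, 7.29, 7.18 and 7.04 in KO hearts and at 7.01, 7.39, 7.06 and 7.06 in WT hearts, so the groups overlapped throughout.

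The 3 RNA sensor genes had positive differences, and 0 of 3 rose, where 10.8% of all genes were called higher. At an unadjusted p under 0.05 limma called 3 higher (15.8% of all genes), and with trended, robust variances 1 (11.4%). A list of 3 genes is too short to compare with other roles by count. Ddx58, which encodes RIG-I, was at 8.10, 8.19, 8.05 and 7.81 in KO hearts and at 7.58, 7.97, 7.64 and 7.76 in WT hearts. It differed by 0.30 (SE 0.10, limma adjusted p = 0.0512, range 0.00328 to 0.135 over the alternatives). Ifih1, which encodes MDA5, differed by 0.25 (SE 0.11). Dhx58, which encodes LGP2, a regulator of both, had the widest spread among KO hearts of the 37 members (SD 0.41). It was at 5.76, 5.86, 5.89 and 5.02 in KO hearts and at 4.84, 5.46, 4.94 and 5.11 in WT hearts, a difference of 0.54 (SE 0.19). Without KO replicate 4 Dhx58 differed by 0.75 (limma adjusted p = 0.00381, range 0.00289 to 0.162 over the alternatives).

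Among 7 transcription factor and nuclear body genes 3 rose, where 10.8% of all genes were called higher. These 3 did so with different arrangements of hearts. Irf5, a factor of Toll-like receptor signalling in myeloid cells, was at 6.92, 7.11, 6.84 and 6.81 in KO hearts, against 6.04, 6.16, 6.14 and 6.13 in WT hearts. The groups were far apart. Irf5 rose by 0.80 (SE 0.07, 95% interval 0.65 to 0.96, limma adjusted p = 2.69e-05). Irf8, which directs monocyte and dendritic cell development, was at 7.08, 7.04, 7.00 and 7.07 in KO hearts and at 6.49, 6.69, 6.50 and 6.57 in WT hearts. It rose by 0.48 (SE 0.06, limma adjusted p = 0.000151), with an SD of only 0.03 among KO hearts.

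Irf7, the factor that amplifies type I interferon production, was at 7.57, 7.50, 7.26 and 6.94 in KO hearts and at 6.29, 7.06, 6.85 and 6.81 in WT hearts. KO replicate 4 was below WT replicate 2, and the difference was 0.57 (SE 0.17, limma adjusted p = 0.0354, range 0.0032 to 0.1 over the alternatives). Irf9 (0.30, SE 0.11) and Stat2 (0.17, SE 0.08), the partners in the ISRE-binding complex, did not pass, nor did Irf1 (0.17, SE 0.10), a target of interferon gamma, or the nuclear body gene Sp100 (0.22, SE 0.12). Without KO replicate 4, Irf9 differed by 0.40 (limma adjusted p = 0.0102, range 0.00756 to 0.162 over the alternatives) and Stat2 by 0.23 (limma adjusted p = 0.0216, range 0.0152 to 0.313 over the alternatives). For Irf1 the 4 KO hearts lay within 7.23 to 7.31, against 6.91 to 7.39 in WT hearts.

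The interferon-inducible GTPases act against intracellular pathogens and are known as targets of interferon gamma. Of the 3 tested 0 rose, where 10.8% of all genes were called higher, and 3 genes are too few to compare roles by count. At an unadjusted p under 0.05 limma called 3 higher (15.8% of all genes), and with trended, robust variances 0 (11.4%). Gbp3 differed by 0.31 (SE 0.12), Iigp1 by 0.34 (SE 0.12) and Irgm1 by 0.27 (SE 0.10). Iigp1 was at 7.21, 7.40, 7.18 and 6.93 in KO hearts and at 6.66, 7.15, 6.87 and 6.70 in WT hearts. Its first 3 KO hearts were above all WT hearts, as in the IFIT genes.

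**Figure D3:**
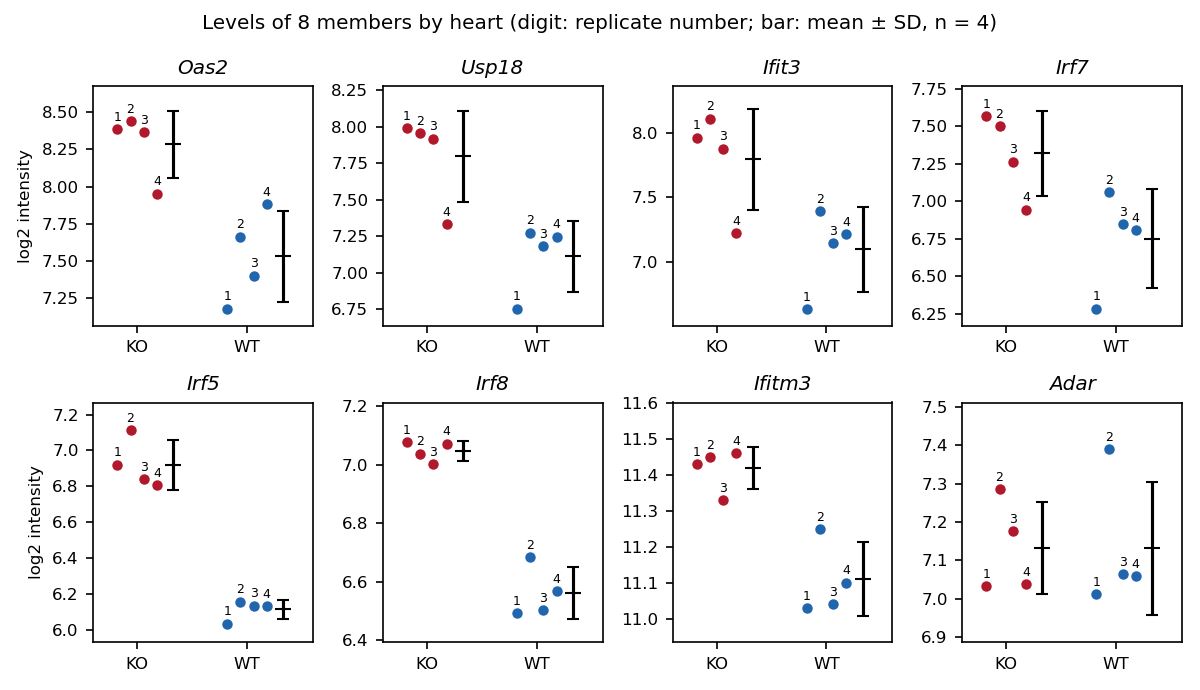
Log2 intensity of 8 members in each heart, with KO on the left and WT on the right of each panel. Digits give the replicate number, and bars give the mean ± SD (n = 4 per group). In Oas2, Usp18, Ifit3 and Irf7 KO replicate 4 lies apart from the other KO hearts and near the WT hearts. In Irf5, Irf8 and Ifitm3 all 4 KO hearts lie above all WT hearts, and Adar overlaps throughout.

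The gap between KO replicate 4 and the mean of the other KO hearts differed widely among the members. It was -0.76 for Ifit3, -0.66 for Ifit1, -0.62 for Usp18 and -0.82 for Dhx58. It was -0.15 for Irf5, 0.03 for Irf8, 0.06 for Ifitm3 and 0.11 for Ifitm2. The median gap was -0.33 over the 37 members and -0.02 over all genes tested. WT replicate 1 was below the other WT hearts by a similar amount, with a median of -0.25 over the members and -0.62 for Ifit3.

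**Figure D4:**
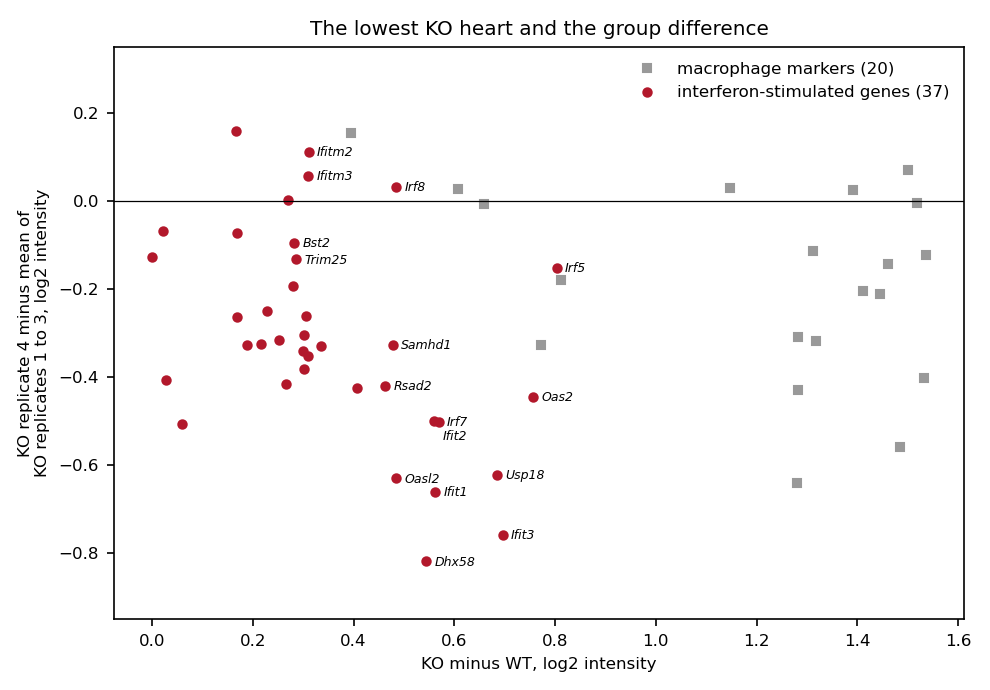
For each gene, the gap between KO replicate 4 and the mean of KO replicates 1 to 3 (vertical, log2 intensity) against the KO minus WT difference (horizontal, log2 intensity). Circles are the 37 tested interferon-stimulated genes and squares are 20 macrophage markers. Dhx58, Ifit3 and Ifit1 lie lowest, while Irf8, Ifitm2 and Ifitm3 lie slightly above 0. Both axes use KO replicate 4, so points are not independent of each other.

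Macrophage markers were higher in the same hearts. Of 20 tested 20 rose, where 10.8% of all genes were called higher, with a median of 1.32. The list was chosen with earlier results of these data known, so this count is not an independent result. The largest differences were those of the adhesion receptor gene Adgre1 (1.54, SE 0.09) and the mannose receptor gene Mrc1 (1.53, SE 0.11). Next were the Fc receptor genes Fcer1g (1.52, SE 0.09) and Fcgr3 (1.5, SE 0.05). Averaged over the list and set against the WT mean, KO replicates 1 to 4 stood at 1.27, 1.24, 1.25 and 1.07 and WT replicates 1 to 4 at -0.10, 0.12, 0.01 and -0.03. The summed intensity of the list was 10760 to 13120 in KO and 4575 to 5317 in WT hearts. As for the interferon-stimulated genes, KO replicate 4 was lowest in its group and WT replicate 2 highest in its own. However, KO replicate 4 was far above WT in the macrophage markers. These places were not particular to macrophages. KO replicate 4 and WT replicate 2 also held them for endothelial (-0.03 and 0.20), fibroblast (0.11 and 0.15) and cardiomyocyte markers (-0.06 and 0.05). For neutrophil markers and for T, B, NK and plasmacytoid dendritic cell markers, KO replicate 4 was not the lowest KO heart. In whole hearts, more cells of a type and more RNA per cell cannot be told apart, and the part of macrophages in the interferon-stimulated genes was not tested.

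Markers of other cell types had smaller differences. Of 10 endothelial markers 0 changed in limma, where 10.8% of all genes were called higher and 13.9% lower. At an unadjusted p under 0.05 limma also called 0, where 15.8% of all genes were higher and 20.1% lower. These markers include the cadherin gene Cdh5 (-0.14) and the sialomucin gene Emcn (0.11). Their list means were -0.03 to 0.06 in KO and -0.13 to 0.20 in WT hearts, and their summed intensities 8623 to 9073 in KO and 8128 to 10040 in WT hearts. The lowest and highest WT hearts for these markers were replicates 1 and 2, as for the interferon-stimulated genes.

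Of 10 fibroblast markers 4 rose, where 10.8% of all genes were called higher. Limma with trended, robust variances called 6 higher, where 11.4% of all genes were. The 4 that rose, named after their values were seen, were the matrix genes Postn (0.64), Mfap5 (0.55), Lum (0.38) and Col1a2 (0.23). The abundant proteoglycan gene Dcn (0.01) and Dpt (0.17) did not pass. List means were 0.11 to 0.29 in KO hearts, with KO replicate 4 the lowest, and -0.13 to 0.15 in WT hearts, with summed intensities of 9494 to 10750 in KO and 8812 to 9580 in WT hearts. Of 12 cardiomyocyte markers 0 rose and 3 fell, where 10.8% of all genes were called higher and 13.9% lower. Limma with trended, robust variances called 1 higher and 6 lower, where 1700 and 2276 of all 14950 genes were. At an unadjusted p under 0.05 limma called 0 higher and 4 lower, where 15.8% and 20.1% of all genes were. The 3 that fell were Ryr2 (-0.53), Myl2 (-0.20) and Mybpc3 (-0.15), also named after their values were seen, while Actc1 (-0.04) and Tnnt2 (0.01) did not pass. Their list means were -0.06 to -0.03 in KO and -0.08 to 0.05 in WT hearts.

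Of 13 listed T, B, NK and plasmacytoid dendritic cell markers 5 passed the dim filter, with summed intensities of 215 to 228 in KO and 204 to 239 in WT hearts. Neither Cd3e of T cells (0.04) nor Cd79b of B cells (-0.04) passed the test, and Cd4 (0.42), named after its value was seen, rose. Of 6 neutrophil markers 3 passed the filter and 0 changed in limma, where 10.8% of all genes were called higher and 13.9% lower. At an unadjusted p under 0.05 limma also called 0, where 15.8% of all genes were higher and 20.1% lower. S100a9 differed by 0.11 and Csf3r by 0.07. The summed intensities of the 3 neutrophil markers were 90.3 to 98.6 in KO and 86.5 to 96.3 in WT hearts. The part of these cell types in the interferon-stimulated genes was not tested either.

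**Figure D5:**
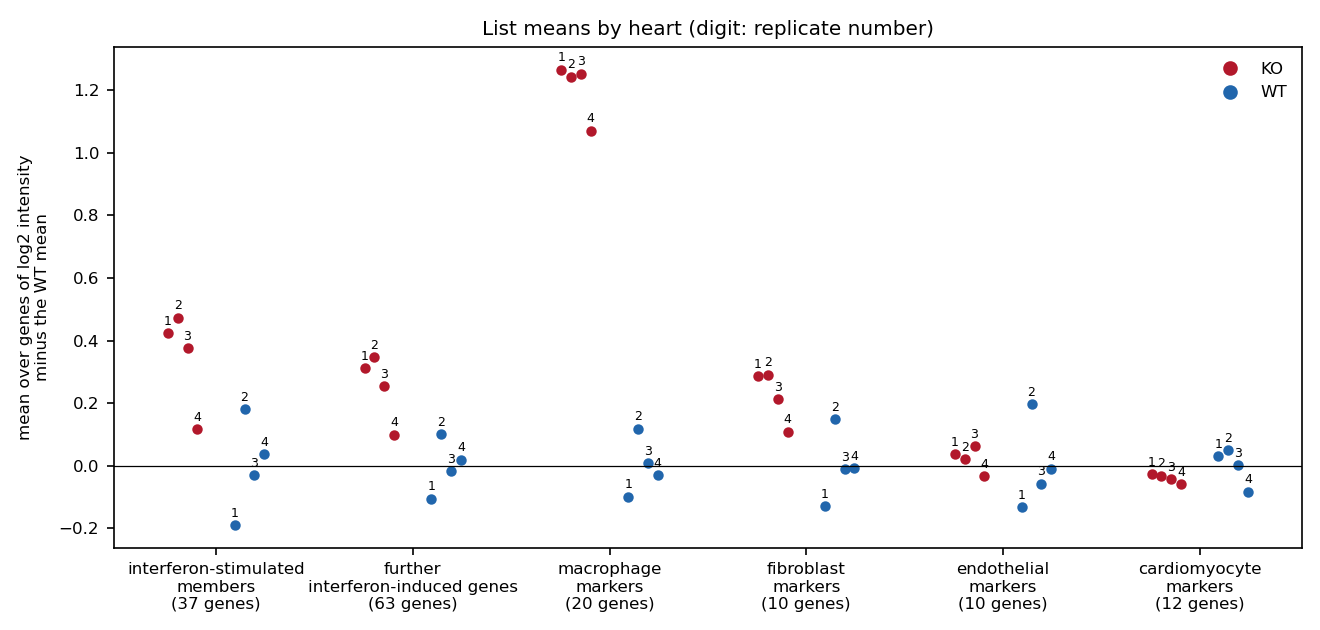
Mean over the tested genes of each list of log2 intensity minus the WT mean, for each heart, with KO (red) left of WT (blue) and digits giving the replicate number. Macrophage markers of KO hearts lie at 1.07 to 1.27. For the interferon-stimulated genes KO replicate 4 (0.12) lies below WT replicate 2 (0.18), and endothelial markers overlap between the groups.

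Upstream of these genes stand the interferon genes themselves. Of 7 measured ligand genes 3 passed the dim filter. In limma 0 of these 3 changed, where 10.8% of all genes were called higher and 13.9% lower. At an unadjusted p under 0.05 limma called 1 higher and 0 lower, where 15.8% and 20.1% of all genes were. Ifng differed by 0.16 (SE 0.10), Ifna2 by -0.13 (SE 0.11) and Ifnl2 by 0.27 (SE 0.11). Ifnl2 was at 8.02, 7.79, 7.63 and 7.996 in KO hearts and at 7.42, 7.51, 7.61 and 7.83 in WT hearts, so the groups overlapped. Its relative Ifnl3 was annotated only on a cluster shared with another symbol. Whether the Ifnl2 probes also bind other transcripts was not tested. Ifnb1, named after its values were seen, was under the filter, at 3.49 to 3.90 in KO hearts and 3.43 to 3.74 in WT hearts. A level this low on the array does not show whether Ifnb1 RNA was present.

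Of 10 receptor and JAK-STAT genes 1 rose and 1 fell, shares near those of all genes tested (10.8% higher and 13.9% lower). At an unadjusted p under 0.05 limma called 3 higher and 2 lower, where 15.8% and 20.1% of all genes were. With trended, robust variances limma also called 3 higher and 2 lower, where 1700 and 2276 of all 14950 genes were. The genes that rose or fell were those of the interferon gamma receptor. Ifngr1 rose by 0.37 (SE 0.09, limma adjusted p = 0.016) and Ifngr2 fell by 0.19 (SE 0.05, limma adjusted p = 0.0153). Ifngr1 was at 9.56, 9.56, 9.64 and 9.24 in KO hearts, against 9.05, 9.002, 9.23 and 9.25 in WT hearts, so KO replicate 4 again overlapped WT. Ifnar2 (0.08), Jak1 (-0.08), Stat3 (0.11) and Il10rb (-0.19) did not pass.

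Among 7 other interferon regulatory factors and brakes 2 rose, where 10.8% of all genes were called higher. Ptpn6, the SHP-1 phosphatase gene of blood cells, rose by 0.62 (SE 0.05, limma adjusted p = 1.89e-05) and Irf2, a factor that competes with IRF1, by 0.33 (SE 0.07, limma adjusted p = 0.007). Irf3 (-0.08), Socs3 (0.14), Pias1 (0.13) and Ptpn2 (-0.14) did not pass.

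Of 15 sensor and adaptor genes 7 rose and 0 fell, where 10.8% of all genes were called higher and 13.9% lower. At an unadjusted p under 0.05 limma called 7 higher and 0 lower, where 15.8% and 20.1% of all genes were. With trended, robust variances limma also called 7 higher (11.4% of all genes) and 0 lower (2276 of 14950 genes). The RNA-sensing Toll-like receptor genes Tlr8 (1.81, SE 0.11) and Tlr7 (1.69, SE 0.10) and Unc93b1 (0.94, SE 0.08), which carries these receptors to endosomes, differed most. Tlr9 (0.51) and the DNA sensor genes Aim2 (0.49) and Zbp1 (0.45) rose, as did the RIG-I adaptor gene Mavs (0.19). Aim2 and Mavs lost the call in some alternatives, with adjusted p of 0.00275 to 0.0998 and 0.00386 to 0.0905 in limma. The adaptor genes Myd88 (0.09), Ticam1 (0.07) and Traf6 (-0.04) and the STING gene Sting1 (0.20) did not pass.

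A second list held further interferon-induced genes. It was chosen with earlier results of these data known, so it gives no independent support for the members. Of 63 tested 22 rose (34.9%), where 10.8% of all genes were called higher. Of the same genes 1 fell, where 13.9% were called lower, and the median was 0.22. The count of risen genes was 14 without KO replicate 1, where 8.11% of all genes were called higher. KO replicate 4 was the lowest KO heart for 48 of the 63 (76.2%), beside 37.2% of all genes tested. List means were 0.31, 0.35, 0.25 and 0.10 in KO replicates 1 to 4 and -0.10 to 0.10 in WT hearts. The risen genes named here had the largest differences. The lysosomal reductase gene Ifi30 rose by 0.80 (SE 0.09), Ifi27l2a by 0.79 (SE 0.15) and Epsti1 by 0.78 (SE 0.07). The schlafen genes Slfn2, Slfn8 and Slfn1 rose by 0.74, 0.70 and 0.57, and Trim30a by 0.71 (SE 0.12).

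The gene that fell was Psme1, which encodes a subunit of the proteasome activator PA28. It was at 8.91, 8.99, 8.87 and 8.73 in KO hearts, against 9.64, 9.76, 9.67 and 9.61 in WT hearts, and fell by 0.79 (SE 0.06, limma adjusted p = 1.51e-05). Lgals3bp (0.30), Lgals9 (0.22) and Ly6e (0.14) did not pass. Ifi205 differed by 0.85 (SE 0.32, limma adjusted p = 0.0836, range 0.00578 to 0.191 over the alternatives) with 1 heart apart, since WT replicate 2 was at 7.53, the other WT hearts at 9.08 to 9.32 and KO hearts at 9.46 to 9.77.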

How the data were processed

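Total RNA of 8 hearts was hybridised to 1 array each. The deposited table holds 1 intensity per transcript cluster and array on a linear scale, from 3.57 to 16629. Partek and RMA made them, per the submitters' processing notes. The sources used here give no versions, genome build, scan dates or batches, so batch and genotype could not be examined apart. Clusters were named through the platform annotation (21631 of 27541 with 1 symbol), and the cluster with the highest mean was kept per gene. A filter at the 25th percentile of the mean over all arrays (log2 4.50) left out 4983 of 19933 genes.

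Log2 values were compared with lmFit and eBayes of limma 3.58.1 (R 4.3.3), with no covariate and 6 residual degrees of freedom. On simulated data for this comparison (14950 genes) 89% of 1.5-fold and 99% of 2-fold changes were recovered, with 12 false calls. That simulation held 100 changed genes of each size and noise drawn independently per gene, without shifts shared within a heart. Members varied more than most genes, with a median SD of 0.17 in KO and 0.20 in WT hearts, beside 0.09 over all genes. The recovery rates therefore do not carry over to the members. Members, context lists and naming rules were chosen with earlier results of these data known. All members are named, and from context lists called genes with the largest differences and bright uncalled genes. Same-numbered hearts did not deviate together (correlations -0.04, 0.03, -0.04 and 0.08). Alternatives were other scalings, filters, variance models, cluster handling, array weights, a replicate block and leaving out each array. Figures used matplotlib 3.10.9 in Python 3.11.15.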

Additional observations from a re-analysis of the deposited data

Results flagged for a closer look

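Within groups of 4 hearts, 1 heart stood apart for 8 of the 78 member and group combinations examined, by the gap to the nearest other heart divided by the group's range. Chance flags about 1 in 20 such groups, and members measured in the same hearts are not independent. KO replicate 4 was the low heart for Usp18 (0.892), Rnf213 (0.868), Parp14 (0.863), Dhx58 (0.850), Sp100 (0.846), Oas2 (0.846) and Irf1 (0.839). WT replicate 2 was the high heart for Adar (0.862). Of the 8 genes, Usp18 and Oas2 rose with and without that heart. The list means of macrophage (1.07), endothelial (-0.03), fibroblast (0.11) and cardiomyocyte markers (-0.06) were also lowest among KO hearts in KO replicate 4. The part of these cell types in this pattern was not tested.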

How the results depend on the processing

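All 14 risen members kept the call under quantile normalisation, median centring, a pseudocount of 16, no filter, the 50th percentile filter, a trend with robust variances, array weights and averaged clusters. The count of risen members was 23 with quantile normalisation (1793 of all genes, against 1612) and 30 with array weights (2177), which also gave 38 further interferon-induced genes. Leaving out 1 array gave 8 to 26 risen members, 14 to 31 further interferon-induced genes, a member median of 0.25 to 0.37, and 1213 to 1705 higher and 1658 to 1914 lower genes in all. A negative sign appeared for Adar with median centring (-0.0107). With single arrays left out, Adar ranged from -0.0499 to 0.0871, Eif2ak2 from -0.000777 to 0.19, Ifi35 from -0.0214 to 0.129 and Isg20 from -0.006257 to 0.0389. With the replicate number as a block, which the labels do not tie to a litter or day, 20 members (and 1466 of all genes) were called higher, 13 of them among the 14, and Irf7 was lost. Members called lower were 0 in every setting. The cause of these shifts was not tested.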
